A study of Mus musculus with 6 samples.

Results

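mmu-miR-221 and mmu-miR-222 are a pair of microRNAs (miRNAs) that are made from neighbouring genes and share their target-recognising bases. They were chosen by name: the members are the array entries that carry these names once a version suffix is removed, and 2 of 611 mouse miRNA entries met this rule. The cells were MCT, a line of mouse kidney tubule cells with the strain background SJL H-2S, and 6 one-colour arrays were used. Control MCT cells filled 3 arrays and MCT cells stimulated with TGFbeta (TGFβ, transforming growth factor beta) at 3 ng/ml for 72 hours filled the other 3. All cells were of the same line, were kept in medium with 10% fetal calf serum and were moved to 0.5% serum before the cytokine was added, so low serum was common to both groups. The labels do not say whether replicates were separate cultures, and the p-values rest on a spread between samples that could be technical.

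miRNAs are short RNAs that repress messenger RNAs through pairing of their seed, the bases near the 5′ end. miR-221 and miR-222 are known as repressors of Cdkn1b, the cell cycle inhibitor p27Kip1, and of the receptor tyrosine kinase Kit. They are known for their roles in tumour, endothelial and vascular smooth muscle cells. TGFβ is a cytokine known to make kidney tubule cells lose epithelial features and to promote scarring.

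The sequences are shown because the shared start and the differing 3′ part set how the 2 miRNAs are alike and how they can be told apart on an array. They are RefSeq entries for build GRCm38.p6, minus strand of the X chromosome, 5′ to 3′, and capitals mark the seed, bases 2 to 8. The array names carry no arm; the bare names stand for the 3′ arm in older miRNA naming, which is the arm printed for both.
mmu-miR-221-3p: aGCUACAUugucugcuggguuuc
mmu-miR-222-3p: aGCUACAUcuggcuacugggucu

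Their first 8 bases were identical, and 11 of 23 positions matched without gaps. After the shared start the longest common run was the 6 bases CUGGGU, which begins at base 15 of miR-221-3p and at base 16 of miR-222-3p. A site that pairs with the seed reads AUGUAGC. Of 1738 mature mouse miRNAs in the RefSeq table, 3 had this seed, and the other one was miR-1928, which matches miR-221-3p over its first 10 bases and is encoded on chromosome 1, minus strand.
mmu-miR-1928: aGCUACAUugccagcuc

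The mouse entries used here name neither miR-1928 nor a star form of either member, so no values are given for these. The hairpin precursors are printed to show where in each the measured strand lies, with the 3′ arm in capitals.
Mir221: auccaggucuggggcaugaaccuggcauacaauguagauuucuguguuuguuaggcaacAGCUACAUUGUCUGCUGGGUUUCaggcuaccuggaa
Mir222: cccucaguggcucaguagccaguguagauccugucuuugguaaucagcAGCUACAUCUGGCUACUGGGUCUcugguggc

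In the gene table the 2 hairpin genes lay next to each other, with 0 genes between them, beside the pseudogene Gm5383 on one side and the long non-coding RNA gene Gm14636 on the other. The array files name build mm9, which differs from that of the table, so no positions are given.

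miR-221 was seen in MCT cells at a low signal and miR-222 did not lie well above background on any of the 6 arrays. Each miRNA was read by 2 probes of 10 spots each. The scanner software subtracts the background from each spot and marks spots that lie well above it. Among the spots of both miRNAs the dimmest marked spot had a signal of 25.9 intensity units and the brightest unmarked spot one of 25.7. Below, a probe is called well above background if a share of 0.5 or more of its spots was marked, and a miRNA if either probe was.

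Of the 20 spots of miR-221, controls 1 to 3 had 4, 7 and 9 marked, and TGFβ 1 to 3 had 7, 5 and 6. These counts include outlier-marked spots, 2 of the 4 on control 1. Control 1 had the fewest, and the TGFβ arrays lay between it and controls 2 and 3 or level with control 2. By the rule above miR-221 was well above background on 2 of 3 control arrays and on all 3 TGFβ arrays, through probe A_54_P3830 alone. Probe A_54_P2640 had at most 2 marked spots of 10 on any array.

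A weaker mark of the software, for spots positive and significant against the background, was given to 15 of 20 miR-221 spots on control 1 and to 19 or 20 on each of the other arrays. The software's own call for the whole miRNA was "detected" on all 6 arrays for miR-221 and on 0 of 6 for miR-222. On control 1 the software thus called miR-221 detected, while by the rule used here it was not well above background.

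For miR-222 the marked spots were 1, 0 and 0 of 20 for controls 1 to 3, and 0, 0 and 1 for TGFβ 1 to 3. The single marked spots on control 1 and TGFβ 3 were also marked as outliers, at 34.7 and 29.9 intensity units. The mark for positive and significant spots was given to 3, 6 and 3 of 20 in the controls and to 9, 2 and 7 in the TGFβ arrays. The spot signals of both miR-222 probes spread to both sides of 0, except for probe A_54_P2644 on TGFβ 1. There every spot lay above 0, with a mean of 6.56 intensity units without outlier-marked spots, yet none was well above background.

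**Figure D1:**
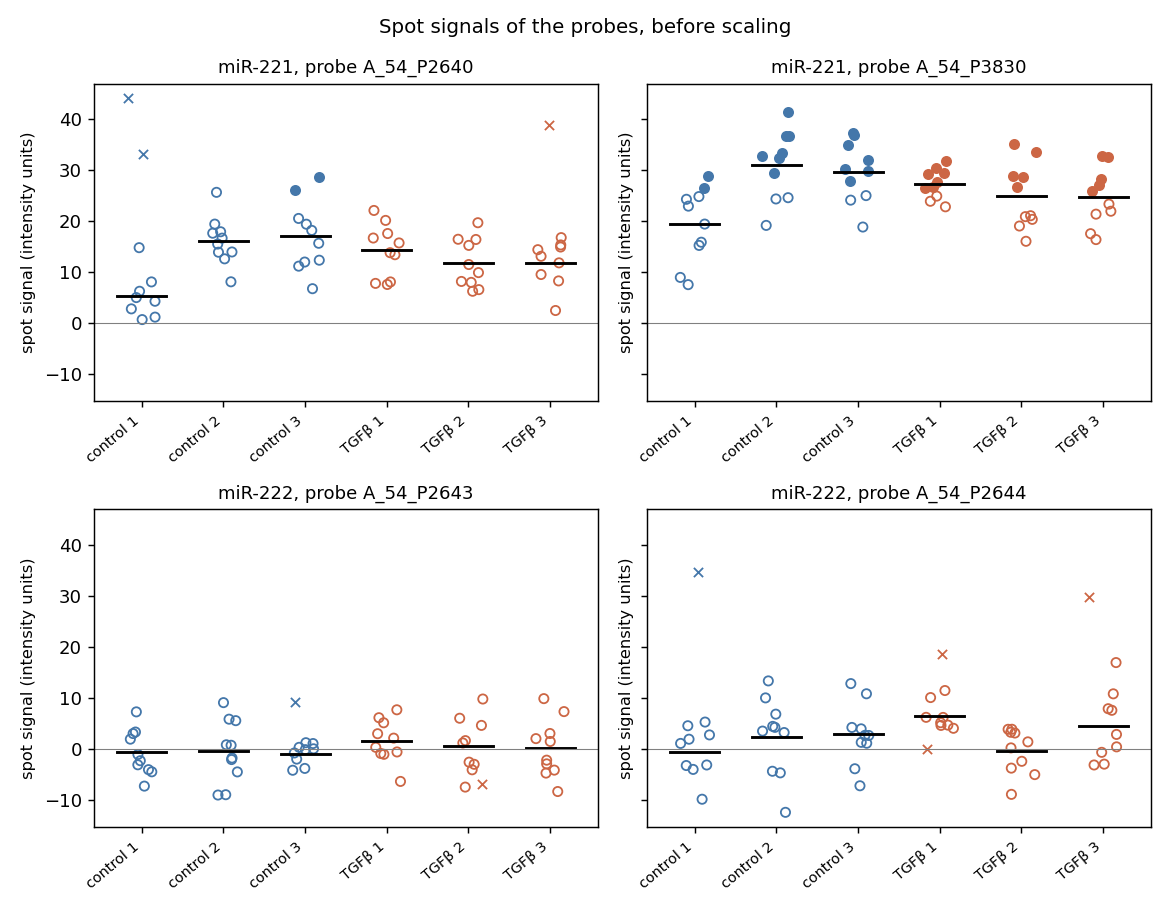
Background-subtracted signal in intensity units of every spot, by array, for the 2 probes of miR-221 (top) and the 2 of miR-222 (bottom); blue is control, orange is TGFβ, filled circles are spots well above background, crosses are outlier-marked spots and bars are means without them. On probe A_54_P3830 of miR-221 control 1 has 2 filled spots and each other array has 5 to 7. The miR-222 spots lie on both sides of 0, except on probe A_54_P2644 in TGFβ 1, where all lie above 0.

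Before any scaling, the mean over the 10 spots of probe A_54_P3830 was 19.5, 31.1 and 29.7 intensity units for controls 1 to 3 and 27.4, 25.0 and 24.7 for TGFβ 1 to 3. The standard deviation (SD) over its spots lay between 2.94 and 7.34. On probe A_54_P2640 the means were 5.41, 16.2 and 17.1 for controls 1 to 3 and 14.3, 11.8 and 11.9 for TGFβ 1 to 3. On both probes control 1 read lowest, controls 2 and 3 highest and the TGFβ arrays in between.

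The mean of probe A_54_P2640 on control 1 leaves out 2 spots that the software marked as outliers, at 44.2 and 33.1 intensity units. With them it was 12.1 in place of 5.41, above the 11.8 of TGFβ 2. On TGFβ 3 a single outlier spot of 38.9 was left out of the same probe, and probe A_54_P3830 had 0 outlier spots on every array.

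The arrays differed in brightness. The 75th percentile used for scaling, taken over the 105 probes that cleared the background on every array, ranged from 249.5 on control 3 to 402.4 on TGFβ 2. It was 363.7 on control 1 and 268.6 on control 2, and 340 to 402 on the TGFβ arrays, so control 1 stood with the TGFβ arrays in this measure. Between 74 and 103 miRNAs were well above background per array. The labelling spike-in signal on the log10 scale was 1.82 on control 1, 2.09 and 2.11 on controls 2 and 3, and 2.13 to 2.14 on the TGFβ arrays, so control 1 stood apart from the other 5 arrays in this measure. Between the groups it gave an exact two-sided permutation p of 0.1, the smallest that 3 against 3 arrays can give. The median local background was 55 or 56 intensity units on the control arrays and 53 or 54 on the TGFβ arrays. It gave the same exact two-sided permutation p of 0.1. The part of these measures in the differences below was not tested.

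After scaling, miR-221 read 11.2, 28.8 and 30.7 intensity units for controls 1 to 3 and 18.7, 15.0 and 17.6 for TGFβ 1 to 3. The groups overlapped because control 1 lay below every TGFβ array, while controls 2 and 3 lay above every TGFβ array. On the log2 scale the means were 4.42 ± 0.82 (SD, n = 3) in control and 4.09 ± 0.16 (SD, n = 3) in TGFβ-treated cells. The log2 difference, TGFβ minus control, was -0.33 (standard error, SE, 0.41, limma adjusted p = 0.633), with a 95% confidence interval from -1.34 to 0.67. An exact two-sided permutation test of the same values gave p = 0.5. The difference was thus smaller than the spread between the control arrays, and the interval holds both a fall and a rise.

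No miRNA passed: 0 of 84 tested, or 0%, had a limma adjusted p under 0.05, and 8 had an unadjusted p under 0.05. This fit and the permutation tests took the arrays as unpaired, since the labels do not say that replicate numbers pair them. With the numbers as a block 1 miRNA passed, miR-714, while miR-221 did not (limma adjusted p = 0.629). miR-714 was tested because it was well above background in the TGFβ group, and it lay at the floor on controls 2 and 3, so the size of its difference depends on the floor. miR-221 entered the test through the TGFβ group, in which it was well above background throughout. Ranked by p it was number 57 of 84, and its SE of 0.41 was above the median SE of 0.23. In RNA of a whole culture, fewer cells that hold the miRNA and less of it per cell cannot be told apart.

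**Figure D2:**
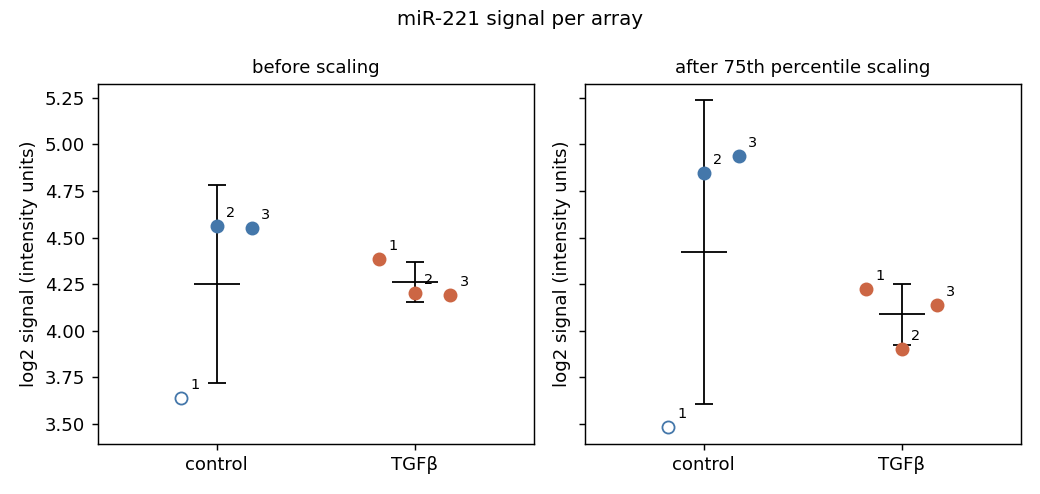
log2 signal of miR-221 (intensity units) on each array before scaling (left) and after 75th percentile scaling (right), numbered by replicate; filled circles are arrays on which miR-221 was well above background, the long bar is the group mean and the error bar 1 SD (n = 3). Control 1 lies below all TGFβ arrays and controls 2 and 3 above them in both panels.

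Scaling set the size of the difference. Before it, miR-221 read 12.4, 23.6 and 23.4 intensity units for controls 1 to 3 and 20.9, 18.4 and 18.3 for TGFβ 1 to 3. The order of control 1, TGFβ and controls 2 and 3 was the same as after scaling, but the log2 means of 4.25 ± 0.53 and 4.26 ± 0.11 (SD, n = 3) left a difference of 0.011. Over the 84 tested miRNAs the median difference was 0.26 without scaling and -0.09 with it, so miR-221 lay below the median by either measure. When each array was scaled to its total miRNA signal, the difference of miR-221 was -0.80 (SE 0.54, limma adjusted p = 0.496) and the median of all tested miRNAs was -0.55.

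Whether miR-221 was called turned on control 1. Without that array the log2 means were 4.87 ± 0.05 (SD, n = 2) in control and 4.05 ± 0.17 (SD, n = 3) in TGFβ-treated cells. miR-221 then fell by 0.81 on the log2 scale (SE 0.14, limma adjusted p = 0.0157), with a 95% confidence interval from -1.18 to -0.45. In that fit 20 of 85 tested miRNAs, or 23.5%, were called lower and 11, or 12.9%, higher. This balance depended on scaling: the same 5 arrays gave 2 lower and 18 higher without scaling, 1 lower and 4 higher with total signal scaling, and 29 lower and 6 higher with the background correction normexp. miR-221 was number 13 by p and had the fifth most negative difference. Leaving out any other single array gave differences from -0.40 to -0.074, none of which passed (limma adjusted p from 0.64 to 0.958). Control 1 was the control on which miR-221 was lowest, so leaving it out widens the difference and narrows the spread, and the adjusted p does not allow for that choice.

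The call without control 1 held with probe A_54_P3830 alone and was lost without scaling or with total signal scaling. That probe gave -0.76 (SE 0.13, limma adjusted p = 0.0156). Probe A_54_P2640 was not well above background on any array, and nothing is read from it alone. Before scaling, the same 5 arrays gave -0.30 (SE 0.14, limma adjusted p = 0.176). Scaled to total signal, which on TGFβ 1 includes the bright miR-1224, they gave -1.30 (SE 0.65, limma adjusted p = 0.359). Weights estimated for each array gave control 1 a weight of 0.14 against 3.71 and 3.08 for controls 2 and 3. In that fit miR-221 differed by -0.76 and passed (limma adjusted p = 0.0131). It was among 45 of 84 miRNAs called, 18 higher and 27 lower. The weights came from the same values as the fit, so it comes close to leaving out control 1 again. Its adjusted p does not allow for that either.

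**Figure D3:**
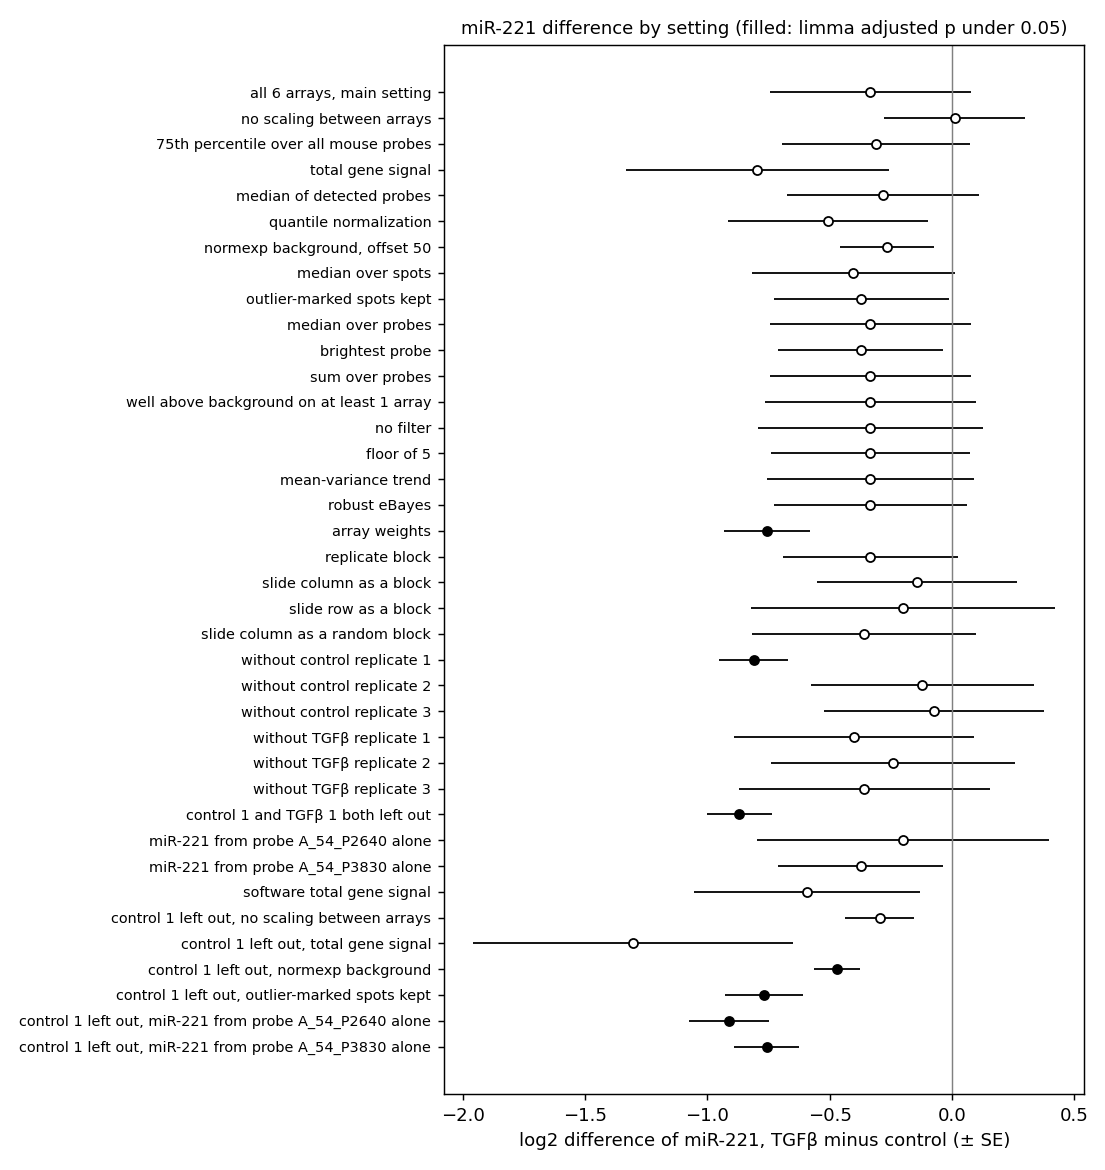
log2 difference of miR-221, TGFβ minus control, in limma fits under each setting, with bars of 1 SE; filled circles have an adjusted p under 0.05. With all 6 arrays the difference is -0.33 and not called, without control replicate 1 it is -0.81 and called, and without scaling between arrays it is 0.011.

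The arrays lay on 1 slide in columns and rows, and slide columns 1 and 2 each held an array of either group. In column 1, TGFβ 2 minus control 1 was 0.42 on the log2 scale. In column 2, TGFβ 3 minus control 2 was -0.71. The signs were opposite, and each value rests on 1 array a group. Column 3 held control 3 alone and column 4 TGFβ 1 alone. In row 1, which held all 3 controls, TGFβ 1 minus their mean was -0.20. With the column as a block the difference of miR-221 was -0.14 (SE 0.41, limma adjusted p = 0.941).

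The software's own summary gave another set of values for miR-221. Its total gene signal was 12.9, 20.7 and 31.1 for controls 1 to 3 and 18.2, 16.6 and 16.4 for TGFβ 1 to 3, before scaling. On 5 arrays this total equalled the total of probe A_54_P3830 alone, while on control 3 it was the sum of 19.7 for that probe and 11.4 for probe A_54_P2640. Controls 2 and 3, which read 23.6 and 23.4 by the mean over probes, thus stood apart by this summary, since the dimmer probe was counted on 1 array only. After scaling it gave a difference of -0.59 (SE 0.46, limma adjusted p = 0.463).

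miR-222 read -0.54, 1.20 and 1.26 scaled intensity units for controls 1 to 3 and 3.63, 0.097 and 2.19 for TGFβ 1 to 3. The groups overlapped, with TGFβ 2 between control 1 and the other controls. The means were 0.64 ± 1.02 (SD, n = 3) in control and 1.97 ± 1.77 (SD, n = 3) in TGFβ-treated cells, with an exact two-sided permutation p of 0.4. No fold is given because miR-222 was not well above background on any array. When all 611 mouse miRNAs were tested with no filter, its limma adjusted p was 0.976.

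The probes of miR-222 did not read alike. Probe A_54_P2643 read -0.61, -0.53 and -1.20 for controls 1 to 3 and 1.39, 0.55 and 0.13 for TGFβ 1 to 3, in scaled intensity units. These groups did not overlap (exact two-sided permutation p = 0.1), yet 0 of its spots were well above background on any array. How many other probes at background did the same was not counted, so no rise is read from this probe. With outlier-marked spots kept, control 3 read 0.101 and TGFβ 2 read -0.077 intensity units before scaling, and the groups of this probe overlapped. Probe A_54_P2644 read -0.47, 2.93 and 3.73 for controls 1 to 3 and 5.87, -0.36 and 4.25 for TGFβ 1 to 3, and its groups overlapped. A level of miR-222 below that of the background was not detectable on these arrays. The planned ratio of miR-221 to miR-222 within each array was therefore not computed.

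The miRNAs whose signal ran most like that of miR-221 were taken from the 70 that were well above background on all 6 arrays, by Pearson's r of log2 scaled signal. These were miR-26b (r = 0.991, Spearman's rho = 0.943), miR-196b (r = 0.973, rho = 1), miR-26a (r = 0.952, rho = 0.886), miR-130a (r = 0.932, rho = 0.886) and miR-27b (r = 0.914, rho = 0.771), over 6 arrays. The median r over the 70 was 0.44. The points share their array and its scaling factor, and the values are a description with no test. No such likeness is given for miR-222, whose values lay at or near the floor.

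The 5 miRNAs shared the low control 1 and the high controls 2 and 3 of miR-221. miR-26b read 3.98, 4.93 and 5.05 for controls 1 to 3 and 4.38, 4.22 and 4.41 for TGFβ 1 to 3, in log2 scaled signal. miR-27b, made from a cluster with miR-23b, read 4.06, 5.28 and 5.15 and then 4.49, 4.08 and 4.03. With all 6 arrays none of the 5 passed, and their log2 differences ran from -0.63 for miR-27b to -0.19 for miR-196b. They were chosen for running like miR-221 over these arrays, so no test of them without control 1 is given.

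**Figure D4:**
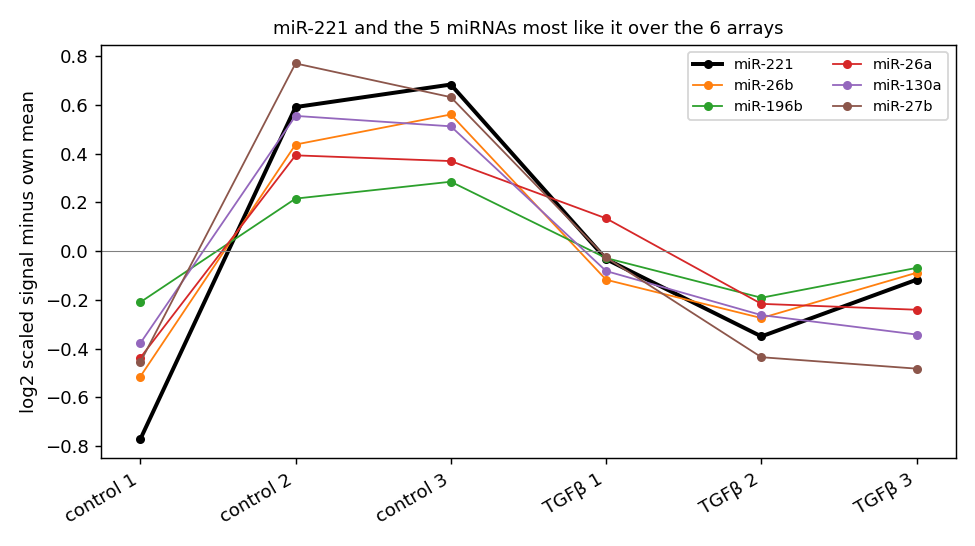
log2 scaled signal minus the miRNA's own mean, by array, for miR-221 (black) and the 5 miRNAs with the highest Pearson correlation to it over the 6 arrays; lines only join the points of a miRNA. All 6 are low on control 1 and high on controls 2 and 3, with miR-221 lowest on control 1.

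Other miRNAs reported to act on the same targets were read from lists. Of 7 miRNAs linked to Cdkn1b, all on the array, 4 were tested, 1 higher and 3 lower, and 0 passed with all 6 arrays. Their median difference was -0.16, beside -0.09 over all 84 tested. The differences were -0.23 for miR-24, -0.12 for miR-196a, -0.19 for miR-196b and 0.83 for miR-181b. miR-181b entered the test through the TGFβ group and was not well above background on controls 2 and 3, so nothing is read from its test without control 1. miR-24 fell by 0.38 there (limma adjusted p = 0.0484), in the fit that called 23.5% of all tested miRNAs lower.

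Of 3 miRNAs linked to Kit, 2 were on the array under the names used and both were tested. miR-34a, a p53 target, differed by 0.87 and miR-193b by 0.14, and neither passed with all 6 arrays. Without control 1 miR-34a rose by 1.31 (SE 0.15, limma adjusted p = 0.014), while miR-193b differed by 0.27 and did not pass. That fit called 11 of 85 tested miRNAs, or 12.9%, higher, and nothing about the list is read from it.

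A further list held 7 members of the clusters of miR-17 and of miR-106b. These are known to promote proliferation, as miR-221 and miR-222 are in many tumour cells. Of these, 6 were tested, 5 with a positive and 1 with a negative difference, and the median was 0.34, beside 35 positive, 49 negative and a median of -0.09 over all 84 tested. The log2 differences were 0.10 for miR-18a, 0.38 for miR-20a, 0.35 for miR-92a, 0.45 for miR-93, 0.34 for miR-25 and -0.0038 for miR-106b, and none of the 6 passed with all 6 arrays. The groups of miR-25 did not overlap, but this also held for other tested miRNAs, all outside the list. Those higher with TGFβ were miR-350, miR-1224, miR-181b, miR-125b-5p, miR-689 and miR-714. Those lower were let-7i, miR-98, miR-423-5p, miR-10a and miR-130b. Nothing about the list is read from the groups of miR-25. Without control 1, miR-20a rose by 0.71 (SE 0.14, limma adjusted p = 0.0208) and the other 5 did not pass, in the fit that called 12.9% of all tested miRNAs higher.

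Markers of cell types in which miR-221 and miR-222 are well known stayed at background on all 6 arrays. Well above background on any array were 0 of 2 endothelial entries (miR-126-3p and miR-126-5p), 0 of 5 smooth muscle and mesenchymal entries on the array, and 0 of 6 blood entries. The summed scaled signal of the endothelial pair was 5.83 to 8.65 intensity units in control and 4.23 to 8.72 in TGFβ arrays. Of 13 renal tubule and epithelial entries 4 were well above background on some array: miR-10a, miR-10b, miR-30a and miR-30d. The first 3 of these were so on all 6 arrays, with mean log2 scaled signals in control of 8.33 for miR-10a, 4.75 for miR-10b and 8.26 for miR-30a. The summed scaled signal of this list was 538.9 to 788.8 intensity units in control and 470.9 to 535.1 in TGFβ arrays. This sum is weighted to the bright miR-10a and miR-30a. Of the 4 members tested with all 6 arrays, 3 were lower, miR-30d was higher by 0.27 and 0 passed. Over all 84 tested miRNAs 49 were lower and 35 higher, so no change of the list is read from the sum. miR-192 and the miR-200 family, listed here as markers of tubular and epithelial cells, did not clear the background on any of the 6 arrays.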

How the data were processed

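MCT cells were profiled on 6 one-colour Agilent miRNA arrays, each labelled with Cy3 from 100 ng of total RNA, per the labels' protocols. The deposited files hold intensity values that the authors' Agilent Feature Extraction software had background-subtracted but left without any scaling across arrays, per the file headers (version 10.7.3.1; the submitters' processing notes give 10.1.1). The deposited 0 or 1 flags for outlier, saturated, significant and well-above-background spots were used as given, per the file headers. The deposited series value table held the same intensities (largest difference 0), and 0 spots of the members were saturated.

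Spots were averaged per probe without outlier-marked ones, and probes per miRNA. For scaling, the 75th percentile over the 105 probes that cleared the background on every array was set equal across arrays, at the geometric mean. A floor of 1 was set and log2 taken. miRNAs that cleared the background throughout the 3 arrays of either group were tested with limma 3.58.1 in R 4.3.3 (lmFit, eBayes, two-sided, Benjamini-Hochberg over all tested, threshold 0.05). The fit was tested on simulated data. Deviations from the group mean correlated between same-numbered arrays (r = 0.38, 0.37 and 0.52), with no comparison of differently numbered arrays beside them. The labels state no pairing, so the main fit and the permutation tests were unpaired. The replicate block was an alternative setting. Python 3.11.15 with matplotlib 3.10.9 drew the figures.

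The members and lists were chosen with earlier results of these data known. Named besides the members were miRNAs with the same seed, the 5 most correlated with miR-221, genes next to the members and up to 4 miRNAs per list. Named beyond that rule, after their values were seen, were miR-714, miR-181b, miR-93, miR-25, miR-1224 and the marker miRNAs miR-10a, miR-10b, miR-30a and miR-30d. So were the miRNAs named because their groups did not overlap. One further list is not reported here. The number of arrays limits the precision. The normexp alternative used the median spot signal and added an offset of 50 before scaling. The scaled offset differs between arrays, so a dim miRNA takes on part of the difference between scaling factors. Under it miR-222, well above background on no array, read 79.3 in control and 66.9 in TGFβ, beside 102.3 and 83.6 for miR-221. The part of this in the calls under normexp was not tested.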

Additional observations from a re-analysis of the deposited data

How the results depend on the processing

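miR-221 was fitted under 37 other settings, of which those that leave out control 1 together with another choice, use each probe alone or use the software's total, and the value within slide row 1, were chosen after seeing the data. Its adjusted p ranged from 0.012 to 1; 29 settings kept a negative difference that was not called, 7 called it and 1 turned the sign. The sign turned without scaling (0.011) and within slide column 1 (0.42). It was called with array weights (-0.76), without control 1 and TGFβ 1 together (-0.87), and without control 1 with normexp (-0.47), with outlier spots kept (-0.77) and from probe A_54_P3830 (-0.76) or A_54_P2640 (-0.91) alone, the latter not well above background on any array. Leaving out single arrays gave -0.81 to -0.074. Restricted to miRNAs above background on all 6 arrays it was not tested.

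The number of miRNAs called, 0 with all arrays, was 1 with total signal scaling, 1 with the replicate block, which left miR-221 uncalled, 3 with the slide row as a block and 45 with array weights. It was 0 to 31 when single arrays were left out and 35 without control 1 and TGFβ 1. Without control 1 it was 20 without scaling, 5 with total signal, 35 with normexp, and 31 with outlier spots kept or with either probe alone.

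The difference of miR-222, 1.33 scaled intensity units, was 2.98 within slide row 1 and -12.4 with normexp, under which both groups keep added signal (means of 79.3 in control and 66.9 in TGFβ). It was 0.49 without TGFβ 1, 0.72 without control 1, 2.17 without TGFβ 2 and -0.071 without control 1 and TGFβ 1. No fold can be given for miR-222, which was not well above background on any of the 6 arrays. The planned ratio of miR-221 to miR-222 was not computed, and the floor and filter alternatives leave the miR-222 value as it is.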
